A study of Mus musculus with 6 samples.

Results

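The cells described here are enterocytes, the absorptive cells of the intestinal epithelium, treated for 13 h with tunicamycin at 0.5 µg/ml and set against enterocytes given the solvent DMSO. They were chosen by the authors' class name in the deposited data and by a limit of 25% on the share of UMIs (unique molecular identifiers, each standing for a captured RNA molecule) from the mitochondrial genome. In all, 3495 enterocytes from 4 libraries met this rule, of 5026 cells of all classes in the 6 libraries of the series that met the same limit. The 2 tunicamycin libraries held 686 and 726 enterocytes, and the 2 DMSO libraries held 1046 and 1037. Both groups were differentiated monolayers grown from intestinal organoids of B6 mice that carried a Rosa26-floxed STOP-Cas9 allele and, by a cross, cmv-cre, in every group alike. Both were cultured in DMSO from differentiation day 3. The 13 h set received tunicamycin after 12 h, and all cells were harvested on day 4 after removal of dead cells, so cells that died earlier were not sampled. The remaining group, 25 h of tunicamycin, held 426 and 447 enterocytes and is used only where named. The tissue tag reads small intestine while the growth protocol names colonic spheroids. In these enterocytes the small intestinal genes Gata4 and Lct had no UMI and Slc10a2 was at 958 and 894 CPM (UMIs of a gene scaled to a common library total) at 13 h and 719 and 702 CPM in DMSO. Of the colonic genes, Car4 and Aqp8 had at most 0.077 CPM and Car1 was at 2289 and 2205 CPM at 13 h and 2988 and 2733 CPM in DMSO, so the expression did not settle the origin.

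Tunicamycin blocks DPAGT1, the enzyme that starts the sugar chain used for N-linked glycosylation, so glycoproteins misfold in the endoplasmic reticulum (ER). Cells answer with the unfolded protein response, in which the sensors IRE1, ATF6 and PERK raise ER chaperones, ER-associated degradation and, through the factors ATF4 and CHOP, amino acid and stress genes. Enterocytes send digestive enzymes, transporters and fat-carrying lipoproteins through the same compartment. The comparison asks which genes of these cells differed after 13 h of the drug.

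The promoters of several of the genes with the greatest increases carry the ER stress response element, written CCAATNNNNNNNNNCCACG, the sequence bound by ATF6 together with NF-Y. It was searched on both strands of RefSeq windows (GRCm38.p6) running from 250 bases before to 50 bases after each gene's start. Of 32851 windows, 39 (0.119%) held it. Windows were matched to 8724 of the 11145 genes tested (78.3%), too few to compare shares between gene sets, so matches are given by gene. Of the 14 tested genes with a match, 12 were called higher at 13 h, Spats2l was called lower and Adcy3 was not called. Among all genes tested, with or without a window, 23.8% were called higher and 23.8% lower. Of the 8724 with a window 4513 were not called. Other genes with large increases, Ddit3, Sdf2l1, Pdia4, Atf5, Adm2, Trib3, Areg and Nupr1, had windows without the motif. Hyou1 and Manf had no matched window. The matches below are those of the genes named in the results, together with Dnajc3, a co-chaperone of HSPA5. They are read 5′ to 3′ on the strand of the motif with 10 bases on each side, and capitals mark the 19 bases of the motif.
Hspa5, chr2:34772015-34772053, gene on the forward strand: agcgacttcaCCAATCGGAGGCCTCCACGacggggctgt
Pdia6, chr12:17266481-17266519, gene on the forward strand: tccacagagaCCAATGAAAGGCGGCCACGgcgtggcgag
Creld2, chr15:88819510-88819548, gene on the forward strand: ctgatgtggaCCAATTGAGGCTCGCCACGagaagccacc
Hsp90b1, chr10:86705628-86705666, gene on the reverse strand: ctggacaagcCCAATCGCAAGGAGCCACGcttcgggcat
Hsp90b1, chr10:86705523-86705561, gene on the reverse strand: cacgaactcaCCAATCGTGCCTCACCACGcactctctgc
Calr, chr8:84847065-84847103, gene on the reverse strand: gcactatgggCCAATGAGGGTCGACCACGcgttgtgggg
Derl3, chr10:75893232-75893270, gene on the forward strand: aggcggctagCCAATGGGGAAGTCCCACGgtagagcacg
Syvn1, chr19:6046522-6046560, gene on the forward strand: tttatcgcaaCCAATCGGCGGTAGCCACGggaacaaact
Dnajc3, chr14:118937817-118937855, gene on the forward strand: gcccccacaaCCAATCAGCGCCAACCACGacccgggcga
The Creld2 match lies between 2 genes that point away from each other and also falls in the window of Alg12, which was called higher with a log2 fold change of 1.76.

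A second motif, TGATGNAA, is the core of the sequence bound by ATF4 with C/EBP partners. It is short, and 1304 of the 32851 windows (3.97%) held it. Of the 240 tested genes with a match, 72 were called higher, 58 were called lower and 110 were not called. Over all genes tested, with or without a window, 23.8% were called higher and 23.8% lower. Npc1l1, Idi1 and Ifit1bl1, named below among genes that fell, held a match as well. Ddit3, Atf5, Mthfd2 and Slc3a2, named below among genes that rose, had windows without it. Matches of some named genes, all of them called higher, are printed in the same way, with the 8 bases of the motif in capitals.
Trib3, chr2:152344029-152344056, gene on the reverse strand: cccgcccggcTGATGTAAacctgagcta
Nupr1, chr7:126625563-126625590, gene on the reverse strand: aagccctgtcTGATGCAAtctggccctt
Slc7a11, chr3:50443662-50443689, gene on the reverse strand: ctcatgtggcTGATGCAAacctggagaa
Asns, chr6:7693215-7693242, gene on the reverse strand: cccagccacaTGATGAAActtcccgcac
Herpud1, chr8:94386307-94386334, gene on the forward strand: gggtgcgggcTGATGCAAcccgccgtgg
A match describes letters in a window and does not show binding.

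Enterocyte counts summed per library came to 12078820 and 13058580 UMIs for tunicamycin and 17429023 and 16755382 for DMSO. The median cell held 16302 and 16643 UMIs at 13 h, against 15652 and 14757 in DMSO, and enterocytes were 87.9% and 88.4% of the kept cells at 13 h, against 88.8% and 89.0% in DMSO. Levels are given in CPM of these sums after trimmed mean (TMM) scaling, except for cell type markers, which are per total counts, and fold changes, their standard errors (SE) and Benjamini-Hochberg adjusted p-values come from the quasi-likelihood test of edgeR over 11145 genes. A gene is said to have risen or fallen where the adjusted p was below 0.05. By that rule 23.8% of all genes tested were higher and 23.8% were lower at 13 h, and 4.24% were higher and 3.17% lower by at least 2-fold. Both tunicamycin libraries lay above both DMSO libraries for 37.2% of genes and below them for 36.8%. Such separation, given below for named genes, was thus common. The median log2 fold change over all genes was 0.01. Of the fibroblast markers, Col1a2, Col3a1 and Dcn had no UMI. Of 5 immune markers 3 were detected, Ptprc and Cd3e had no UMI, and the list summed to 15.9 and 19.9 CPM at 13 h and 19.0 and 15.3 CPM in DMSO, nearly all of it from Cd74. Of 10 goblet cell markers 9 were detected, and their summed level was 3338 and 3236 CPM at 13 h, against 3925 and 3857 CPM in DMSO, most of it from Tff3 and Fcgbp. Of the 8 goblet markers tested in enterocytes 2 rose and 2 fell. Agr2 was at 31.1 and 29.4 CPM at 13 h and at 7.975 and 6.74 CPM in DMSO. Muc2, which defines goblet cells, was at 9.69 and 7.35 CPM in enterocytes at 13 h and 11.9 and 6.74 CPM in DMSO, whereas the cells named goblet had between 522 and 1493 CPM. Of the enterocyte markers, Hspa5 was lower in enterocytes than in goblet cells in DMSO, at 155 and 209 CPM against 504 and 502 CPM. At 13 h Hspa5 was at 5029 and 5213 CPM in enterocytes and at 4597 and 4822 CPM in goblet cells. Alpi, Apoa4 and Fabp2 were higher in enterocytes than in goblet cells of each of the 4 libraries. Fabp2 still reached 429 CPM in goblet cells of DMSO replicate 1. Whether such RNA of other classes has a part in the results was not tested.

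The chaperones of the ER lumen had the greatest median fold change of all the gene lists examined except amino acid genes. Of 27 tested genes for ER chaperones and folding, 26 rose, 22 of them by at least 2-fold, none fell, and the median log2 fold change was 2.13. Summed over the list, they took 19363 and 20113 CPM at 13 h and 3075 and 3209 CPM in DMSO, a ratio of 6.28. Hspa5 (ENSMUSG00000026864, chr2:34771970-34777547, forward strand, GRCm38) encodes BiP, the main ER chaperone and the protein that holds the stress sensors inactive. It stood at 4992 and 5120 CPM in the tunicamycin libraries and at 159 and 214 CPM in the DMSO libraries. Both treated libraries were far above both controls, and the rise was 27.1-fold (log2 4.76 ± 0.11 SE, edgeR adjusted p = 2.8e-13).

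Protein disulfide isomerases, which form and rearrange disulfide bonds, rose with it. Pdia6 (chr12, the gene of the second promoter above) was at 666 and 705 CPM at 13 h and at 25.0 and 28.9 CPM in DMSO. Pdia4 was at 318 and 342 CPM at 13 h and at 23.5 and 25.2 CPM in DMSO. Neither gene had a treated library within reach of a control, and the log2 fold changes were 4.67 for Pdia6 and 3.76 for Pdia4. Hsp90b1, which encodes the ER member of the HSP90 family, was at 2202 and 2287 CPM at 13 h and at 171 and 178 CPM in DMSO. Calr, which encodes calreticulin, a lectin that folds glycoproteins, was at 2792 and 2914 CPM at 13 h and at 356 and 344 CPM in DMSO. On the log2 scale Hsp90b1 rose by 3.68 and Calr by 3.03, far more than the gap between replicates.

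Several partners of the chaperones were scarce in DMSO cells. Hyou1, a nucleotide exchange factor for BiP, was at 59.4 and 55.5 CPM at 13 h and at 3.46 and 3.42 CPM in DMSO, a log2 fold change of 4.06 ± 0.10. Creld2 rose by 4.20, Sdf2l1 by 3.79 and Manf, an ER protein that can also be secreted, by 3.78 on the same scale. All 4 had both treated libraries above both controls, which the rule for naming the 15 highest genes required. The only tested member of the list that did not pass the test was Ero1lb, and Fkbp14 had too few counts to be tested.

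**Figure D1:**
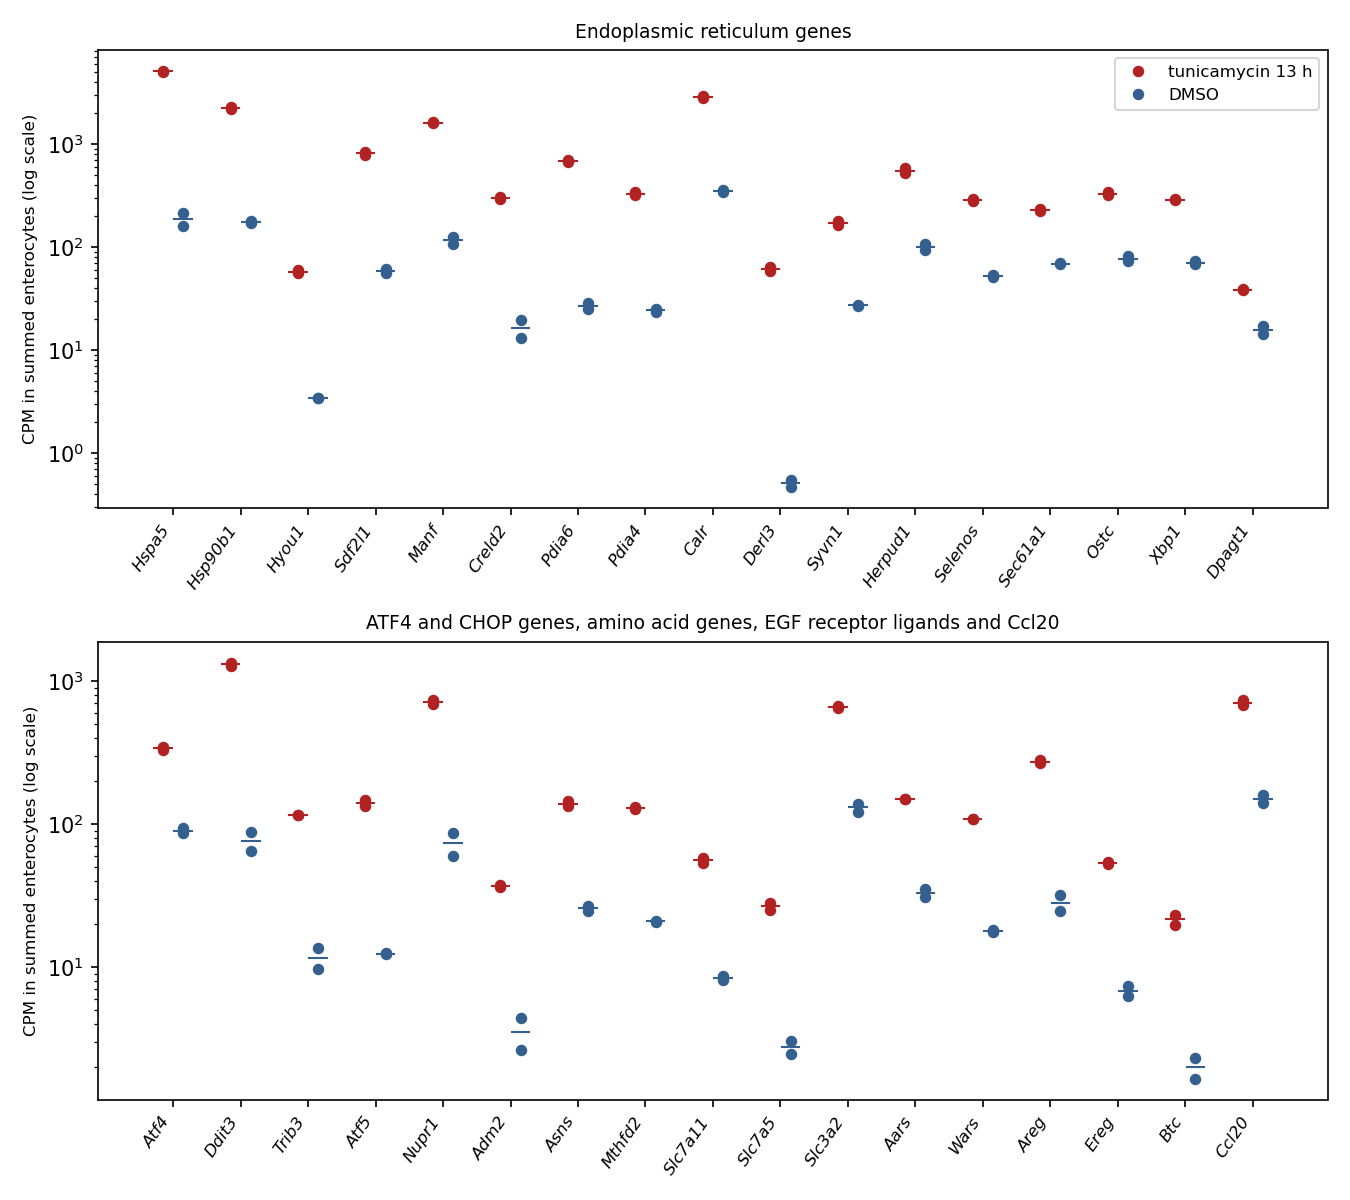
Level of ER genes (top) and of ATF4, amino acid and ligand genes (bottom) in each library, in CPM of summed enterocyte counts on a log scale, with tunicamycin 13 h left of DMSO for each gene. Points are libraries (n = 2 per group) and bars are means; in each gene drawn both tunicamycin points lie above both DMSO points, with the widest gap at Derl3 (58.7 and 63.9 CPM at 13 h, 0.470 and 0.550 CPM in DMSO).

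Genes that carry proteins out of the ER for destruction rose too, and Derl3 had the greatest fold change of all genes tested. Derl3 encodes a derlin, a membrane protein of the channel through which misfolded proteins leave the ER. It was at 58.7 and 63.9 CPM at 13 h (714 and 850 UMIs) and at 0.470 and 0.550 CPM in DMSO (8 and 9 UMIs). The gene was thus close to the detection limit in DMSO enterocytes and plainly present after tunicamycin, a rise of 6.89 ± 0.14 on the log2 scale (edgeR adjusted p = 8.5e-14). In the list of ER-associated degradation 19 of 23 tested genes rose and none fell, with a median of 0.53. Syvn1, which encodes the ubiquitin ligase HRD1, rose by 2.65, its partner Sel1l by 1.98, Herpud1 by 2.45 and Selenos by 2.44. The list of proteasome genes moved little: 8 of 34 rose, close to the share over all genes, and 3 fell. Its median was -0.01 and turned to 0.04 under total-count scaling. Psmc6, with 0.31, had the lowest adjusted p of that list.

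Most genes for entry into the ER and for N-glycosylation rose as well, while the processes themselves were not measured. Of 22 genes for translocation and signal peptidase 20 rose and none fell, with a median of 0.96. Sec61a1, the pore of the translocon, was at 224 and 234 CPM at 13 h and at 69.9 and 67.9 CPM in DMSO, and Spcs2 of signal peptidase was at 368 and 364 CPM at 13 h and at 112 and 123 CPM in DMSO. The treated libraries were above the controls for both genes, as they were for 37.2% of all genes. Of 29 genes for N-glycosylation and sugar supply 19 rose and 2 fell (Alg6 and Slc35a3), with a median of 0.38. Dpagt1, whose product is the target of the drug, was at 39.2 and 38.2 CPM at 13 h and at 17.1 and 14.4 CPM in DMSO. Its rise of 1.29 ± 0.09 on the log2 scale (adjusted p = 2.1e-08) exceeded the spread between the libraries. The subunits of the oligosaccharyltransferase, the enzyme that moves the sugar chain onto proteins, included Ostc with 2.09, Magt1 with 1.92 and Rpn1 with 1.69. Uggt1, which tests glycoproteins for correct folding, rose by 1.55, and Gfpt1, the entry enzyme of the hexosamine pathway, rose by 1.37. In ER to Golgi transport 25 of 29 genes rose and 1 fell, with a median of 0.68, among them the vesicle fusion protein gene Bet1 (1.65) and the cargo receptor gene Lman1 (1.45).

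The sensors had smaller fold changes than the chaperones, a difference that was not tested. Of 11 tested sensors and factors 6 rose and none fell. Xbp1, whose mRNA is spliced by IRE1, was at 283 and 290 CPM at 13 h and at 68.1 and 72.5 CPM in DMSO, a rise of 2.03 ± 0.05. The counts do not tell spliced from unspliced Xbp1. Creb3l2, a membrane-bound transcription factor related to ATF6, was at 15.5 and 13.8 CPM at 13 h and at 4.81 and 3.97 CPM in DMSO, a rise of 1.73. Ern1, which encodes IRE1 alpha, rose by 0.75, Atf6 by 0.87 and Atf6b by 0.68. None of the libraries of these genes overlapped between groups, and 37.2% of all genes likewise had both treated libraries above both controls.

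The ATF4 and CHOP branch rose nearly as a whole, with 17 of 18 tested genes higher, none lower and a median of 1.92. Ddit3, which encodes CHOP, a transcription factor known for its part in death under ER stress, was at 1349 and 1284 CPM at 13 h and at 64.6 and 88.2 CPM in DMSO. Atf4 was at 333 and 347 CPM at 13 h and at 86.8 and 93.5 CPM in DMSO. Both genes stood apart between the groups, Ddit3 with a log2 fold change of 4.11 ± 0.10 and Atf4 with 1.92 ± 0.05. Trib3, a pseudokinase that feeds back on ATF4 and CHOP, rose by 3.33, the transcription factor Atf5 by 3.50, the stress cofactor Nupr1 by 3.28 and the translation repressor Eif4ebp1 by 1.91. Adm2, a peptide hormone gene outside the list, rose by 3.39. Vegfa, an angiogenic factor in the list, had a log2 fold change of 0.00 and did not pass the test.

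All 20 tested genes for amino acid synthesis and transport rose, 17 of them by at least 2-fold, with a median of 2.42. Asns, asparagine synthetase, was at 134 and 144 CPM at 13 h and at 24.8 and 26.6 CPM in DMSO. Slc7a11, the cystine transporter, was at 53.5 and 58.1 CPM at 13 h and at 8.04 and 8.68 CPM in DMSO. Slc7a5, a transporter of large neutral amino acids, was at 25.2 and 27.8 CPM at 13 h and at 2.47 and 3.05 CPM in DMSO. All 3 separated the groups, as did 37.2% of all genes in the same direction. Slc7a5 had the greatest log2 fold change of the 3, 3.26 ± 0.13. Its heavy chain partner Slc3a2 rose by 2.34, and Mthfd2 of mitochondrial one-carbon metabolism rose by 2.63. Of 20 cytosolic aminoacyl-tRNA synthetases, which load amino acids onto tRNA, 19 rose and none fell, with a median of 1.22. Wars was at 108 CPM in both libraries at 13 h and at 18.2 and 17.7 CPM in DMSO, and Aars rose by 2.19. Kars did not pass the test.

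Ligand genes of the EGF receptor were among those that rose. Areg, Ereg and Btc encode such ligands, growth signals of the epithelium. Areg was at 266 and 283 CPM at 13 h and at 24.5 and 31.8 CPM in DMSO. Ereg was at 52.8 and 54.2 CPM at 13 h and at 6.28 and 7.33 CPM in DMSO. Btc was at 23.3 and 19.8 CPM at 13 h and at 1.64 and 2.32 CPM in DMSO. All 3 ligands were above their controls in both libraries, by 3.29, 2.97 and 3.43 on the log2 scale. In the whole list of 10 ligands, receptors and feedback genes 6 rose and 3 fell, the receptor gene Erbb2 among those that fell, with -0.39. Among 13 genes of NF-kB feedback and chemokines 5 rose and 3 fell with a median of -0.01, which turned to 0.04 under total-count scaling. Ccl20, a chemokine for lymphocytes and dendritic cells, was at 677 and 738 CPM at 13 h and at 141 and 159 CPM in DMSO, while the inhibitor gene Nfkbia fell by 0.81 on the log2 scale.

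**Figure D2:**
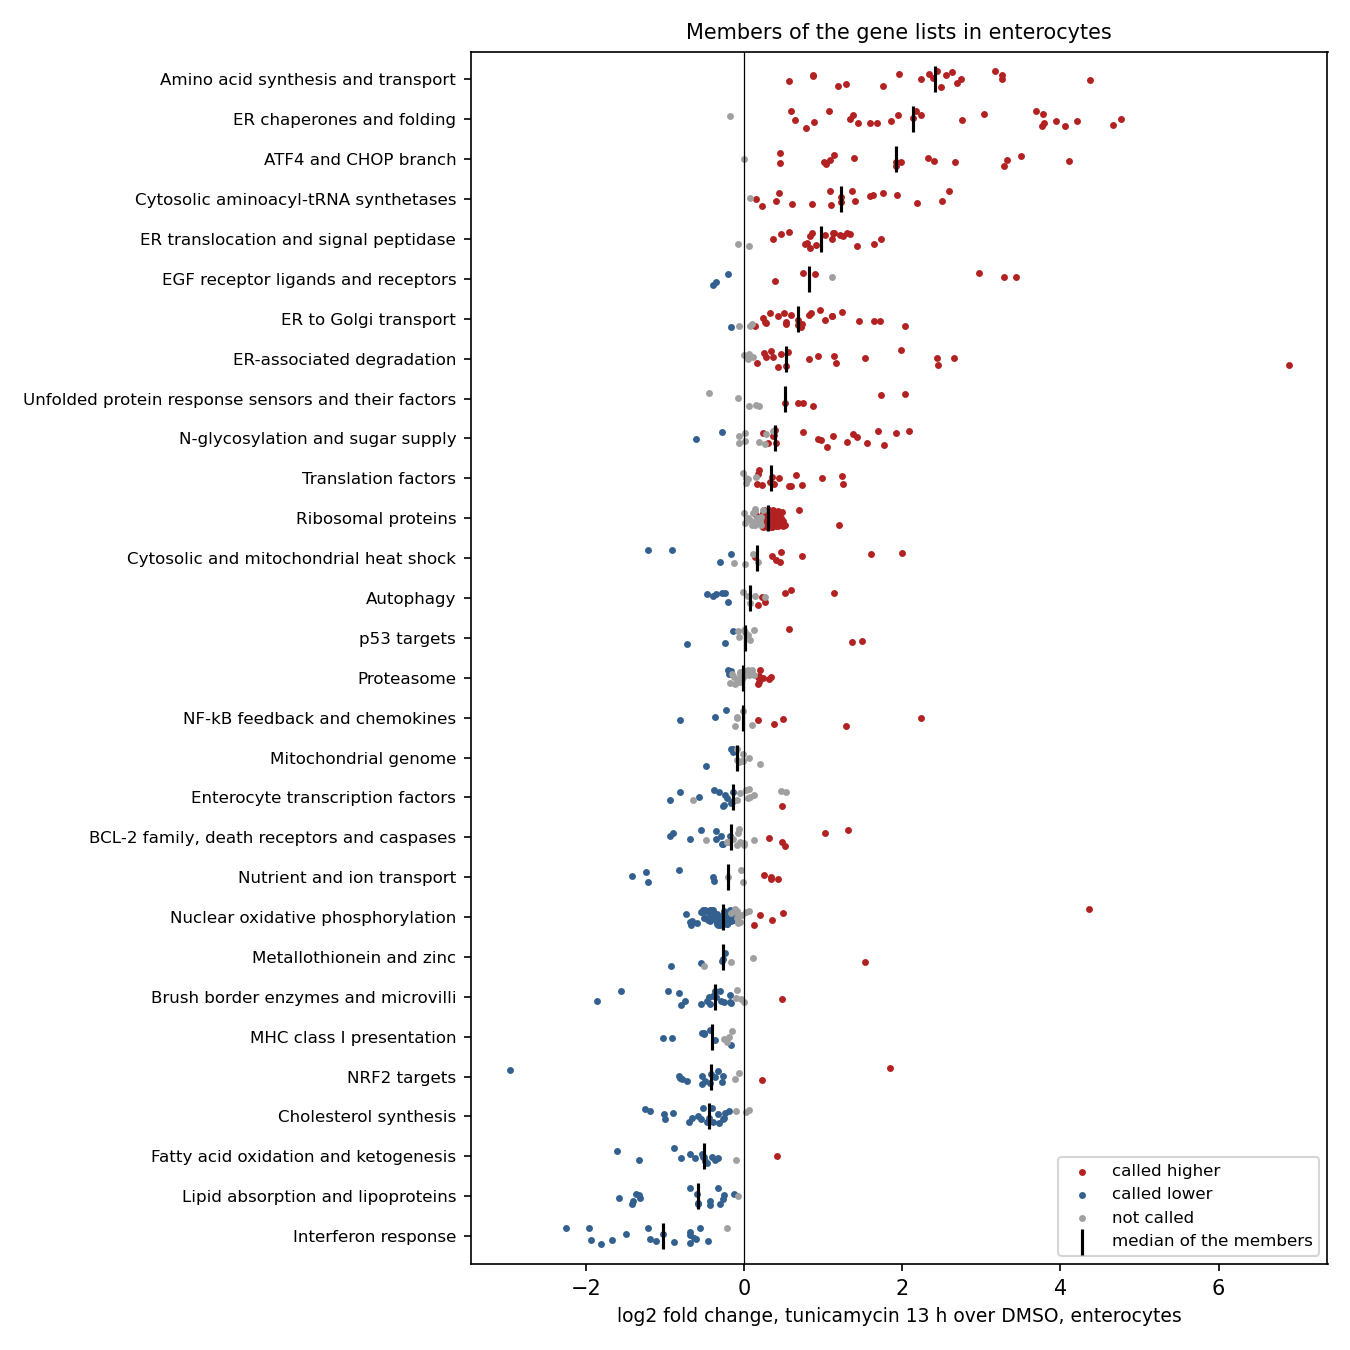
Log2 fold change, tunicamycin 13 h over DMSO, of each tested member of the gene lists in enterocytes, lists ordered by their median. Each point is a gene, coloured by whether edgeR called it higher, lower or neither, and black ticks are medians; amino acid genes have a median of 2.42 and interferon genes a median of -1.03.

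The rise was present in most single cells. Each cell was reduced to 5000 randomly drawn UMIs so that cells of different depth could be compared, which left 682 and 720 cells at 13 h and 1033 and 1024 in DMSO. The median cell had 21 and 22 Hspa5 UMIs at 13 h and 0 in both DMSO libraries. The 95th percentile of DMSO cells was 3 Hspa5 UMIs, and 93.0% (95% exact binomial interval 90.8 to 94.8) and 95.8% (94.1 to 97.2) of tunicamycin cells exceeded it. Summed over the chaperone list, the median cell had 94 and 97 UMIs at 13 h, against 14 in both DMSO libraries, and 93.4% and 96.1% of tunicamycin cells were above the DMSO 95th percentile of 25 UMIs. The ATF4 and CHOP list had medians of 18 in both treated libraries and 3 in both controls, and 79.2% and 77.6% of treated cells were above the DMSO 95th percentile of 11 UMIs. Without tunicamycin high values occurred as well: the highest in DMSO, in replicate 2, were 146 Hspa5 UMIs and a chaperone sum of 382, above the highest in treated cells, 131 and 309. These intervals cover counting error of cells only.

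**Figure D3:**
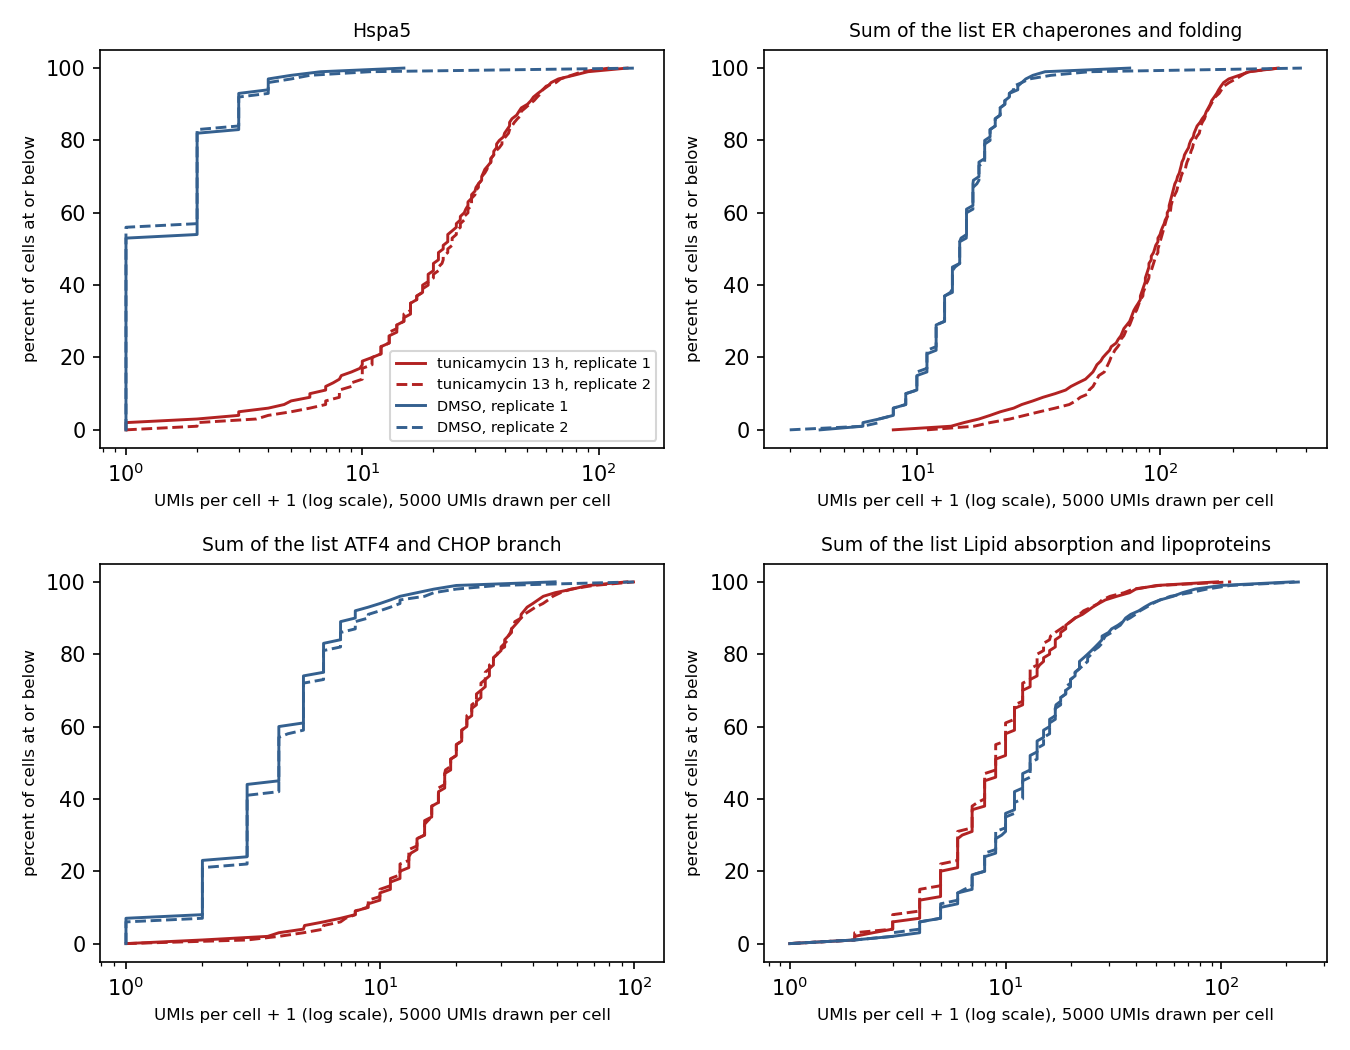
Cumulative distribution over enterocytes of Hspa5 and of the summed chaperone, ATF4 and CHOP, and lipid absorption lists, with UMIs per cell plus 1 on a log axis after each cell was reduced to 5000 UMIs, and the percent of cells at or below that value on the other axis. Lines are libraries, red for tunicamycin 13 h and blue for DMSO; replicate lines of a group lie close together, and the median chaperone sum was 94 and 97 UMIs at 13 h and 14 in both DMSO libraries.

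Genes of fat absorption fell as a group. Of 18 tested genes for lipid absorption and lipoproteins 17 fell and none rose, with a median of -0.58, and their summed level was 2104 and 2012 CPM at 13 h against 3571 and 3616 CPM in DMSO. Fabp2, the intestinal fatty acid binding protein (chr3, and a marker of the class), was at 200 and 188 CPM at 13 h and at 617 and 550 CPM in DMSO. Apoa4 was at 67.4 and 61.1 CPM at 13 h and at 153 and 178 CPM in DMSO. Apoc3 was at 165 and 145 CPM at 13 h and at 377 and 392 CPM in DMSO. Each of these genes of fatty acid transport and chylomicrons was lower in both treated libraries, with log2 fold changes of -1.59 ± 0.06, -1.36 ± 0.09 and -1.31 ± 0.06. Apob, the scaffold of the chylomicron, fell by 0.43 and Npc1l1, which takes up cholesterol, fell by 0.59. The level of these genes was uneven between cells: the median cell had 0 Fabp2 UMIs of 5000 in all 4 libraries, while the highest cells had 29 and 63 at 13 h and 178 and 164 in DMSO. Over the whole list the median cell had 8 UMIs in both treated libraries and 12 in both controls.

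Brush border genes fell to a smaller extent. Of 25 tested enzymes and microvillus proteins 20 fell and 1 rose (Enpep), with a median of -0.37, and 2 of them fell by at least 2-fold. Anpep, aminopeptidase N, was at 7.73 and 8.88 CPM at 13 h and at 32.8 and 27.7 CPM in DMSO. Alpi, intestinal alkaline phosphatase, was at 160 and 142 CPM at 13 h and at 271 and 255 CPM in DMSO. Both were lower in both treated libraries, by log2 values of -1.86 ± 0.17 for the peptidase and -0.80 ± 0.06 for the phosphatase. The protease gene Mep1a fell by 0.82, and Vil1 and Espn, which bundle actin in microvilli, fell by 0.55 and 0.48. Transporters were mixed, with 6 of 13 tested genes lower and 4 higher. The glucose transporter Slc5a1 was at 11.8 and 13.3 CPM at 13 h and at 34.6 and 33.0 CPM in DMSO, the peptide transporter Slc15a1 fell by 1.22 and the iron transporter Slc11a2 by 0.83. The 4 that rose included Slc51b, a bile acid exporter subunit, with 0.42. Among transcription factors of enterocytes 12 of 23 fell and 1 rose: the vitamin D receptor gene Vdr fell by 0.81, Elf3 by 0.58 and Gata5 by 0.94, whereas Gata6 rose by 0.48.

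Genes of lipid and energy metabolism followed. Of 23 cholesterol synthesis genes 20 fell and none rose, with a median of -0.44. Acat2, which makes acetoacetyl-CoA for the pathway, was at 10.6 and 10.2 CPM at 13 h and at 23.0 and 24.5 CPM in DMSO, so both treated libraries were below both controls. Hmgcs1 fell by 0.66, Idi1 by 0.91 and Dhcr7 by 1.26. Of 16 genes for fatty acid oxidation 14 fell and 1 rose, with a median of -0.52, and the peroxisomal enzyme gene Ehhadh was at 10.4 and 14.3 CPM at 13 h and at 32.3 and 30.1 CPM in DMSO. Nuclear genes of oxidative phosphorylation shifted downward by small amounts: 62 of 79 fell and 5 rose, with a median of -0.26, and the ATP synthase gene Atp5a1 fell by 0.46. Cox6a2, a subunit known from striated muscle, was among the 5 that rose, with 5.10 and 7.52 CPM at 13 h and 0.352 and 0.244 CPM in DMSO. Of the 13 protein-coding genes of the mitochondrial genome 5 fell and none rose, with a median of -0.09. The mitochondrial share of UMIs was 9.05% and 9.34% at 13 h against 9.53% and 9.41% in DMSO. Cells were chosen by a limit of 25% on this share, so these mitochondrial values describe the kept cells only.

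Interferon-stimulated genes, which act against viruses, had the lowest median of all lists, -1.03. Of 19 tested members 18 fell, 10 of them by at least 2-fold, and none rose. Ifit1 was at 47.8 and 41.7 CPM at 13 h and at 173 and 170 CPM in DMSO. Ifit3 was at 8.14 and 5.87 CPM at 13 h and at 32.8 and 33.8 CPM in DMSO. Oasl2 was at 16.03 and 12.64 CPM at 13 h and at 45.9 and 45.6 CPM in DMSO. All 3 had both treated libraries below both controls, with log2 fold changes of -1.94 ± 0.06, -2.26 ± 0.12 and -1.68 ± 0.09. The related gene Ifit1bl1 had the lowest fold change among genes of at least 20 CPM, with 30.2 and 19.3 CPM at 13 h, 140 and 142 CPM in DMSO and a log2 value of -2.52. Apol7a and Apol10a of the apolipoprotein L family fell by 1.99 and 1.66. Of 12 genes for MHC class I presentation 8 fell and none rose, among them B2m with -0.54, H2-K1 with -0.44 and the immunoproteasome subunits Psmb9 with -1.03 and Psmb10 with -0.92.

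**Figure D4:**
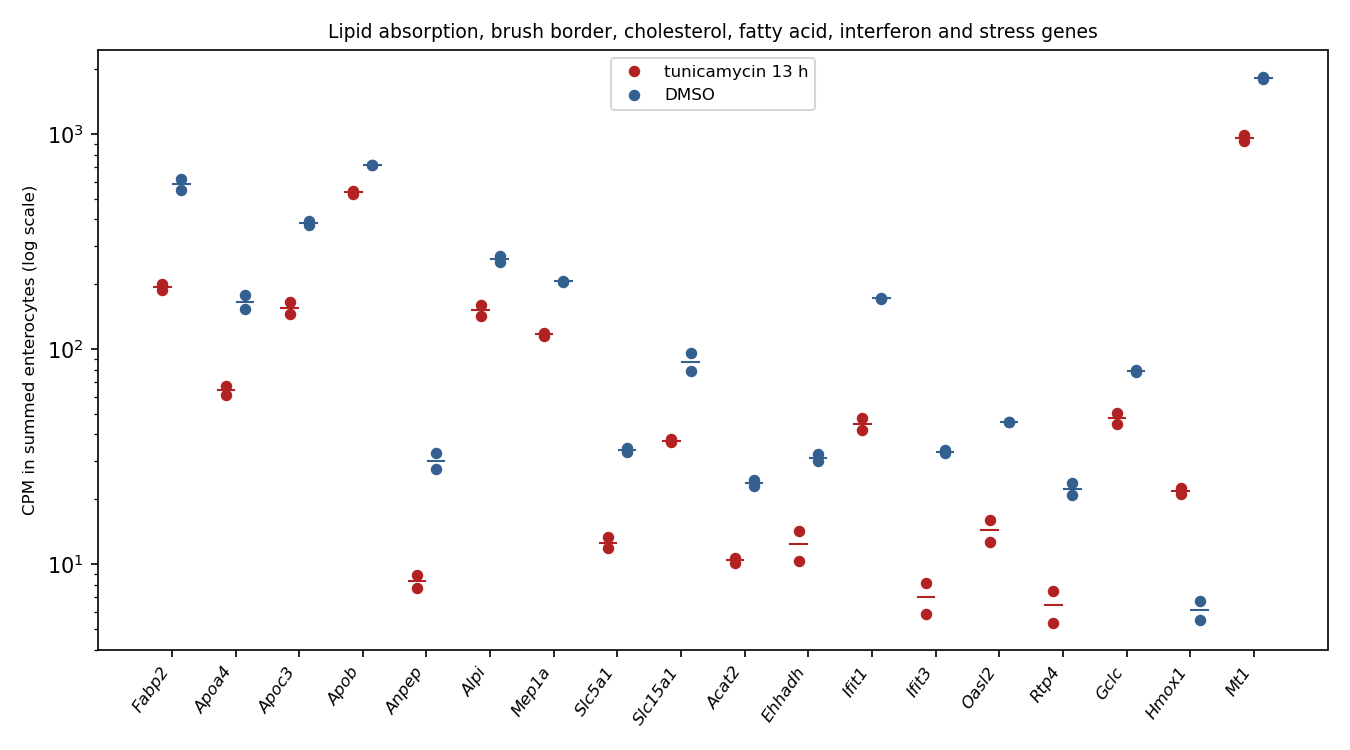
Level in each library, in CPM of summed enterocyte counts on a log scale, of lipid absorption, brush border, transport, cholesterol, fatty acid, interferon and stress genes, with tunicamycin 13 h left of DMSO for each gene. Points are libraries (n = 2 per group) and bars are means; all genes drawn are lower in both tunicamycin libraries except Hmox1, which is at 22.4 and 21.2 CPM at 13 h and 5.46 and 6.72 CPM in DMSO.

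Most listed targets of the antioxidant factor NRF2 were lower. Of 18 tested 14 fell and 2 rose, with a median of -0.42. The glutathione synthesis genes Gclc and Gclm fell by 0.72 and 0.79 and the peroxiredoxin gene Prdx1 by 0.54. Hmox1, heme oxygenase, went against the list with a rise of 1.84 ± 0.12. Outside the lists, the alcohol dehydrogenase gene Adh6a was at 166 and 151 CPM at 13 h and at 517 and 570 CPM in DMSO, and the monooxygenase gene Fmo5 was at 83.4 and 82.2 CPM at 13 h and at 229 and 239.9 CPM in DMSO. Both genes were lower in both treated libraries, which the rule for naming the 15 lowest genes required. Metallothionein gene Mt1 was at 921 and 983 CPM at 13 h and at 1791 and 1832 CPM in DMSO. The ER and Golgi zinc transporter Slc39a7 was the only member of the 9 metallothionein and zinc genes to rise, with 1.53.

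Regulators of cell death showed no common direction. Of 26 tested genes of the BCL-2 family, death receptors and caspases 5 rose and 10 fell, with a median of -0.17. Bcl2l11, which encodes the death activator BIM, was at 9.04 and 11.8 CPM at 13 h and at 20.6 and 18.7 CPM in DMSO, and Bmf, another BH3-only gene, fell by 0.94. Bax rose by 0.31 and Diablo by 0.52. Named after their values were seen, the death receptor gene Tnfrsf10b (1.31) and the survival gene Bcl2 (1.03) had the greatest increases in the list. Among 13 p53 targets 3 rose and 3 fell, Trp53inp1 with 1.48 and Cdkn1a with -0.25. Among 17 autophagy genes 6 rose and 6 fell, the receptor gene Sqstm1 with 1.13.

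Genes of chaperones outside the ER and of the translation machinery rose in part. Of 16 cytosolic and mitochondrial heat shock genes 8 rose and 4 fell. The mitochondrial chaperone gene Hspa9 was at 277 and 286 CPM at 13 h and at 68.2 and 73.1 CPM in DMSO, and the mitochondrial protease gene Lonp1 rose by 1.60, whereas the cytosolic Hsph1 fell by 0.91. Of 20 translation factors 15 rose and none fell, with a median of 0.34, and Eif1 and Eif3c rose by 0.99 and 1.25. Ribosomal protein genes rose by small and similar amounts: 65 of 81 rose and none fell, with a median of 0.30. The summed level of the 81 genes was 103425 and 104056 CPM at 13 h and 84676 and 84748 CPM in DMSO. Rpl36al, with 1.20, had the greatest fold change of the list. Under total-count scaling these medians for heat shock, translation and ribosomal genes kept their sign.

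Enterocytes and goblet cells, which secrete mucus and came from the same libraries, differed in how far several of these groups moved. The difference was tested as an interaction of class and treatment with the library as a block, over 10458 genes, on 77 and 75 goblet cells at 13 h and 105 and 109 in DMSO. The response was higher in enterocytes for 3.33% of genes and lower for 1.48%. With total counts in place of the trimmed mean scaling this split turned, to 188 genes higher and 271 lower against 348 and 155, and the median difference over all genes moved to -0.08, against 0.08. Beside that shift, the lists of chaperones, translocation, cholesterol, interferon and ribosomal genes kept the direction of their median difference under both scalings. The goblet sums hold fewer UMIs than the enterocyte sums, and differences of response can be missed, large ones included.

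ER chaperones differed between the classes. Of 26 chaperone and folding genes 21 had a higher response in enterocytes and 1 (Ero1l) a lower one, and the median log2 fold change was 2.15 in enterocytes and 1.15 in goblet cells. On levels scaled over both classes, Pdia6 had 655 and 691 CPM at 13 h and 24.6 and 28.3 CPM in DMSO in enterocytes, and 869 and 756 CPM at 13 h and 236 and 244 CPM in DMSO in goblet cells. After treatment the classes were near the same level, and the difference in response was 2.91 ± 0.12 on the log2 scale (edgeR adjusted p = 7.0e-20). Hspa5 had a log2 fold change of 4.76 in enterocytes and 3.06 in goblet cells, a difference of 1.75 ± 0.10. Of 22 translocation genes 11 had a higher response in enterocytes and none a lower one, and without DMSO replicate 1 the count was 6.

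In the ATF4 and CHOP branch the calls went both ways. Of its 18 genes 1 had a higher response in enterocytes, Atf4 itself with a difference of 0.58, and 3 had a lower one, and the median was 1.92 in enterocytes and 1.91 in goblet cells. The 3 were Stc2, Gdf15 and Cebpb. Without DMSO replicate 2 the list had 1 lower call, and without DMSO replicate 1 it had 0 higher calls. Gdf15, a stress hormone gene, had 29.8 and 28.0 CPM at 13 h and 4.91 and 9.74 CPM in DMSO in enterocytes, and 47.1 and 39.0 CPM at 13 h and 2.63 and 1.63 CPM in DMSO in goblet cells. Phgdh, the entry enzyme of serine synthesis, is in the amino acid list. Its log2 fold change was 1.95 in enterocytes and 4.36 in goblet cells. Phgdh was the only lower call of that list, while 5 of its 20 genes had a higher response in enterocytes.

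Cholesterol and interferon genes had smaller falls in enterocytes. Of 23 cholesterol synthesis genes 19 had a higher response in enterocytes, that is a smaller fall, and the median was -0.44 in enterocytes and -1.18 in goblet cells. The count was 9 without 13 h replicate 1 and 10 without DMSO replicate 1. Of 20 interferon genes 9 did so, with medians of -1.03 in enterocytes and -1.98 in goblet cells, and the count was 5 without 13 h replicate 1 and 5 without DMSO replicate 1. Ifit1 had 47.0 and 40.9 CPM at 13 h and 171 and 167 CPM in DMSO in enterocytes, and 11.1 and 7.44 CPM at 13 h and 176 and 175 CPM in DMSO in goblet cells. The classes thus had near equal levels in DMSO and unequal levels after treatment. Ribosomal protein genes showed the reverse order of response, with a lower rise in enterocytes for 76 of 81 genes and medians of 0.30 in enterocytes and 0.81 in goblet cells.

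**Figure D5:**
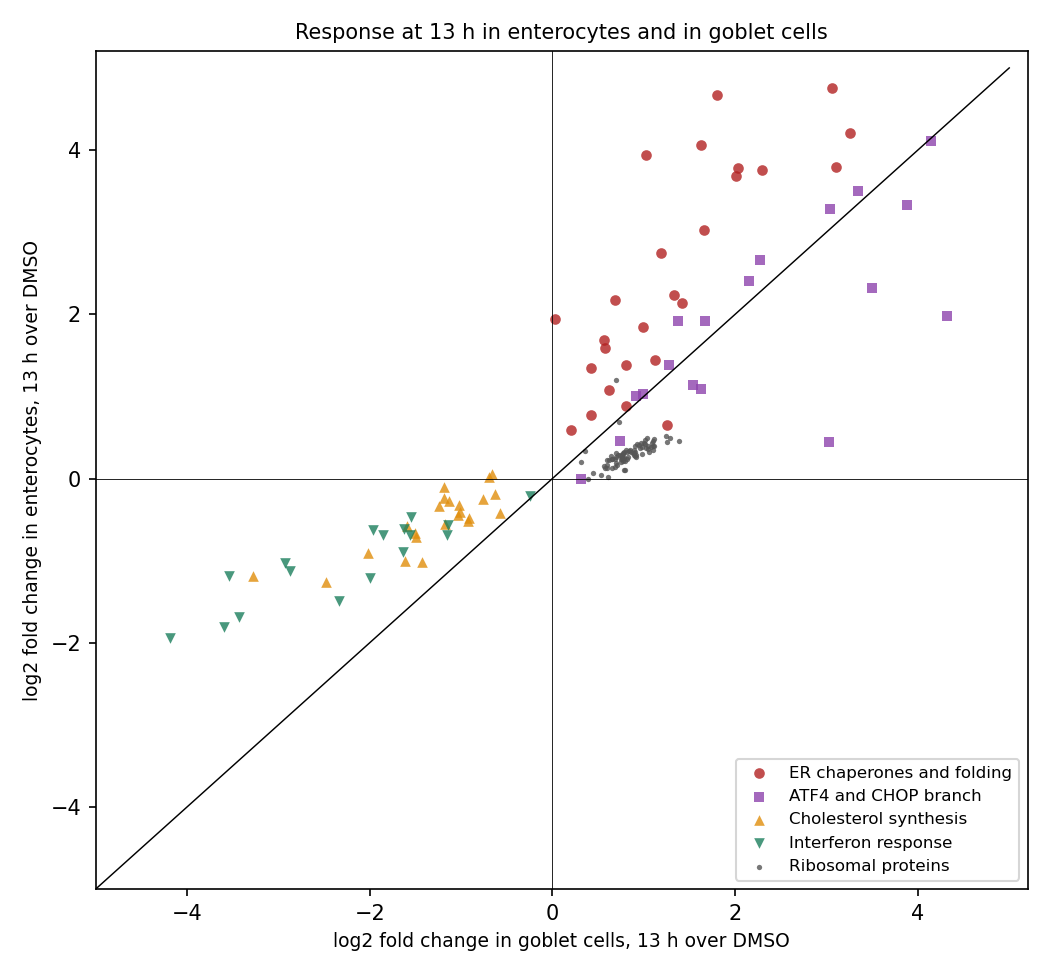
Log2 fold change, tunicamycin 13 h over DMSO, in enterocytes (vertical) and in goblet cells (horizontal) for members of 5 gene lists. Points above the diagonal line had the greater value in enterocytes, as most ER chaperones, cholesterol and interferon genes did, and most ribosomal protein genes lie below it.

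At 25 h of the drug, compared with 13 h, 10.4% of genes were higher and 10.9% lower in enterocytes, and the chaperones had passed their highest sampled level: 20 of 27 were lower at 25 h and none higher, with a median of -0.40. Hspa5 was at 2916 and 3155 CPM at 25 h, below both 13 h libraries and above both DMSO libraries. Lipid absorption genes were lower still at 25 h for 10 of 18 members, and Apoc3 differed by -1.13 between 25 h and 13 h. Ribosomal protein genes were higher at 25 h than at 13 h for 66 of 81 members. The 25 h set had tunicamycin from day 3 on with no time in DMSO before it, so the handling before the drug differed with the time of exposure and the effects of the 2 cannot be told apart.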

How the data were processed

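The authors deposited a matrix of raw UMI counts with 27998 genes and 5122 cells, each cell named by library, barcode and class. Per the submitters' processing notes, Cell Ranger and mm10 were used. No source used here gives the version, the cell filter or the way classes were assigned. GENCODE vM21 (GRCm38) gave symbols for 27645 identifiers. Of the barcodes, 12 occurred in more than 1 library and 3 among these enterocytes, and cells were kept apart by library. The mitochondrial limit removed 20 and 16 enterocytes at 13 h and 27 and 21 in DMSO. Scrublet (scanpy 1.11.5) called 31 deposited cells doublets (0.605%), which were kept.

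Counts were summed per library and class. All 6 enterocyte libraries entered a single fit with group as its term, using filterByExpr, TMM scaling and edgeR 4.0.16 (quasi-likelihood test, R 4.3.3). Genes were called at a Benjamini-Hochberg adjusted p below 0.05. SE is the log2 fold change divided by the root of F. The series text calls the 2 libraries of a group biological replicates, without saying what was separate, so p-values measure the spread between these libraries. Replicates of a group differed by more than sampling noise (chi-square per degree of freedom 2.38 at 13 h and 3.02 in DMSO). The biological coefficient of variation was 0.0418. Both fits were tested on simulated data with known changes. At log2 changes of 1 and -1 the enterocyte fit called 84.8% and 94.1% of the changed genes. The class difference fit called 39.4% and 41.2% of them, and 72.7% and 69.7% at 2 and -2. Many differences between classes can thus be missed. The gene lists, members and naming rule were chosen with earlier results of these data known. Named genes were the 15 highest and 15 lowest with at least 20 CPM and separate groups, up to 5 per list by adjusted p, and 9 set genes. Genes named outside this rule (exceptions within a list, motif matches, markers) were chosen after their values were seen. Alternatives were DESeq2 1.42.0, other scaling and filters, and leaving out libraries. Protein sequences were not used here. Some items are not reported here.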

Additional observations from a re-analysis of the deposited data

Results flagged for a closer look

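Responses at 13 h that differed between enterocytes and goblet cells by the test of the difference itself (edgeR interaction of class and treatment) were looked at again, taking the 6 highest and 6 lowest differences among genes with at least 20 CPM in either class. In log2 units of enterocyte minus goblet response, the highest were Pdia5 with 2.93, Pdia6 with 2.91, Hyou1 with 2.47, Ifit1 with 2.30, Apol9a with 2.26 and Acat2 with 2.14. The lowest were Stc2 with -2.55, Cyb5r1 with -2.53, Nts with -2.51, Phgdh with -2.39, Gdf15 with -2.37 and Tat with -1.75. For the first 3 of these, the disulfide isomerases and the BiP cofactor, both classes rose. For Ifit1, Apol9a and Acat2 both fell. Stc2, a secreted glycoprotein gene, had 20.8 and 21.2 CPM at 13 h and 15.9 and 14.8 CPM in DMSO in enterocytes, and 49.0 and 59.5 CPM at 13 h and 5.27 and 8.17 CPM in DMSO in goblet cells.

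Nts, which encodes neurotensin, a hormone of enteroendocrine cells, had 56.3 and 0.930 CPM in the 2 goblet libraries at 13 h and 7.02 and 17.1 CPM in goblet cells in DMSO, so 1 library set its value. In enterocytes it had 24.5 and 59.0 CPM at 13 h and 63.3 and 129 CPM in DMSO. Without 13 h replicate 1 its difference changed sign. Cyb5r1 had 0 and 1.63 CPM in goblet cells in DMSO, so its fold change there rests on few UMIs. With 1 library left out, the call was lost for Cyb5r1 whichever library it was, for Nts without either DMSO library, for Gdf15 (-1.52, adjusted p = 0.408) and Tat (-1.20, adjusted p = 0.0751) without DMSO replicate 2, and for Apol9a (1.38, adjusted p = 0.221) and Acat2 (1.56, adjusted p = 0.0591) without 13 h replicate 1, by edgeR with Benjamini-Hochberg adjustment.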

How the results depend on the processing

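No gene called at 13 h had the opposite call under any of the 12 alternatives, and no named gene changed sign. DESeq2 called 1723 genes higher, against 2652 by edgeR, and 1777 lower, against 2655. Leaving out 1 library gave 1904 to 2112 higher and 2202 to 2386 lower. Total-count scaling gave 3050 higher and 2232 lower (57.7% higher of those called) and moved the median of all genes to 0.06. Replicate numbers did not pair the libraries (correlations of same-numbered deviations -0.011, -0.02 and -0.025), and the fit with the replicate block gave 2559 higher and 2555 lower. The cause of the fewer calls by DESeq2 was not tested.

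The class difference depended most on the settings. Total-count scaling gave 188 higher and 271 lower, against 348 and 155, and leaving out 1 library gave 122 to 255 higher and 88 to 136 lower. ER chaperones with a higher response in enterocytes numbered 15 to 21 of 27 with 1 library left out and 20 of 26 under total-count scaling. The difference for Nts ranged between -4.19 and 2.97 with 1 library left out, the highest without 13 h replicate 1. The cause was not tested.

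Shares of cells above the DMSO 95th percentile moved with the number of UMIs drawn. With 3000 UMIs they were 89.9% and 93.5% for Hspa5, 53.5% and 54.4% for Pdia6, 77.0% and 81.3% for Hsp90b1, 79.4% and 82.4% for Calr, and 73.2% and 71.2% for the ATF4 and CHOP list. With the mitochondrial limit at 10% they were 73.0% for Pdia6 in replicate 1, 79.5% and 84.2% for Hsp90b1, and 68.3% and 67.8% for the ATF4 and CHOP list. With 5000 UMIs and the limit of 25%, Pdia6 had 69.5% and 72.8% and Hsp90b1 83.9% and 88.1%.

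Among values for named genes, 1996 kept their direction and call and 20 lost the call. The 2 libraries per group and the depth of scarce genes limit what can be called.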

Other observations

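Apart from the goblet cell markers given above, the listed markers of other cell classes were low in the enterocyte sums. Enteroendocrine markers summed to 42.4 and 40.9 CPM at 13 h and 45.4 and 42.1 CPM in DMSO, Paneth markers to 10.9 and 8.35 CPM at 13 h and 8.72 and 7.28 CPM in DMSO, and stem and cycling markers to 36.2 and 34.5 CPM at 13 h and 37.4 and 34.6 CPM in DMSO. Nearly all of the enteroendocrine sum came from Sct, with 42.2 and 40.8 CPM at 13 h. Nts, which is outside that list, had 63.3 and 129 CPM in DMSO enterocytes and 24.5 and 59.0 CPM at 13 h. These Nts levels are scaled over both classes. Most of the stem and cycling sum came from Pcna, with 34.4 and 32.9 CPM at 13 h. Tuft markers were lower, at 4.47 and 4.82 CPM at 13 h and 7.86 and 7.58 CPM in DMSO, with Il25 at 0 in all 4 libraries.

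Among genes that differed between the times, Atf5 was higher at 25 h than at 13 h by 0.42 on the log2 scale, while Hspa5 was lower by -0.74. The immunoproteasome gene Psmb9 was higher at 25 h than at 13 h by 1.01, and 7 of 19 interferon genes were higher at 25 h and 1 was lower. Mt1 was lower at 25 h by -1.98 and Anpep was higher by 0.85, although both had been lower at 13 h than in DMSO.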
